A study of Drosophila melanogaster with 6 samples.

Results

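The drosomycin-like peptide genes of Drosophila melanogaster are Drsl1 to Drsl6, relatives of the antifungal peptide gene Drs. They were taken by their symbols from the deposited table, where 6 of 14026 genes bear these names. The family was chosen by its deposited fold changes at Pe day 0 and the group levels behind them. RNA came from adult midguts of wild-type Oregon-R flies, in 3 groups of 2 libraries. The group labelled Pe day 3 received Pe, an agent that the labels do not spell out, and was 7 to 8 days old. The group labelled Pe day 0 received Pe and was 4 to 5 days old, and the Mock group received sucrose at that same age. The labels name no transgene or mutant allele. The labels name no sucrose group at day 3, and Pe day 3 therefore differed from Mock in its age as well as in treatment and day. The design text places the series at the start and the end of midgut regeneration.

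Drosomycin is a small secreted peptide held together by disulfide bonds, and Drs is the best known output of the Toll pathway in the fat body. Its relatives lie near it in the genome and have been studied much less. In the fly gut most inducible antimicrobial peptide genes answer to the Imd pathway, whereas Drsl3 has been described as a gene of the infected gut that depends on JAK-STAT signalling. The cytokines of that pathway are released by damaged enterocytes and also drive stem cell division.

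All members lie on chromosome 3L, and each is annotated with 1 exon and 1 transcript (Ensembl annotation of BDGP6.54). Drsl2 (3314349 to 3314681), Drsl3 (3314996 to 3315355), Drsl4 (3315620 to 3315942) and Drsl5 (3316781 to 3317144) follow one another on the plus strand within 2796 bases. Drsl1 (3335579 to 3335788) and Drsl6 (3336032 to 3336418) form a pair on the minus strand, 18434 bases beyond Drsl5. Drs (3369556 to 3369942, plus strand) lies a further 33137 bases away. The annotated coding parts predict proteins of 69 to 72 amino acids, and Drs one of 70. For Drsl1 the annotation holds the coding part alone, with no UTR, while the other members have both UTRs.

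The deposited values were a mean over all libraries and, gene by gene, a pair of comparisons with a common group, with no value for a single library. Column names do not say which groups were set against each other. The first comparison was taken as Pe day 0 and the second as Pe day 3, each against Mock, because the table's title lists its groups in that order, and directions given here depend on this reading. Group levels were worked out from the overall mean and the pair of fold changes, as normalized counts (reads divided by a size factor for each library) with 95% intervals from the deposited errors. The depth worked out in this way was between 1.76e+07 and 2.01e+07 reads per library. Adjusted p-values are those of the authors' fit (DESeq2) unless stated, with 0.05 as the threshold. The labels do not say that the libraries of a group came from separate dissections. The errors therefore reach no further than these libraries, whose spread may be technical. They rest on a single dispersion (spread parameter) per gene for all groups, so no interval measures the spread within its own group alone. In bulk tissue, fewer cells of a type and less RNA per cell cannot be told apart.

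Drsl2, Drsl3, Drsl4 and Drsl5 were higher at Pe day 0 than in Mock, with deposited folds between 13.3 and 136 in the authors' table, while Drsl1 and Drsl6 were listed at 0. By Pe day 3 the intervals of Drsl2, Drsl3 and Drsl4 lay over those of Mock. Drs, the founding gene of the family, was not among the genes called at Pe day 0. The members were chosen with these results known, so their values stand as a description.

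Drsl3 had the highest level of the family at Pe day 0. Its normalized count was 12.2 at Pe day 3 (95% interval 7.71 to 19.3), 1678 at Pe day 0 (1424 to 1978) and 12.3 in Mock (7.75 to 19.7). Behind these stood an estimated 20.9 reads at Pe day 3, 4784 at Pe day 0 and 20.2 in Mock over the libraries of each group. The Pe day 0 interval was apart from both others, which nearly coincided. The authors' deposited table gave Drsl3 a log2 fold change of 7.09 (SE 0.36, n = 2 libraries per group) at Pe day 0 against Mock, the 33rd highest of 10393 tested genes. For Pe day 3 against Mock the deposited log2 value was -0.02 (SE 0.48), with an interval of 0.514-fold to 1.90-fold. A difference of less than about that size could not be seen at this depth.

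Drsl2, whose start lies upstream of Drsl3, followed the same course at a lower level. Its normalized count was 10.9 at Pe day 3 (95% interval 6.60 to 18.2), 551 at Pe day 0 (437 to 696) and 9.90 in Mock (5.79 to 17.0). The authors' deposited log2 fold change of Drsl2 was 5.80 (SE 0.43) at Pe day 0 against Mock, or 55.7-fold. For Pe day 3 against Mock it was 0.14 (SE 0.54), with an interval from 0.529-fold to 2.31-fold.

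Drsl4, the next gene along the row, had a smaller change. Its normalized count was 6.32 at Pe day 3 (95% interval 3.12 to 12.8), 179.9 at Pe day 0 (122 to 266) and 13.5 in Mock (7.68 to 23.7). The Pe day 0 interval was again apart from the others, and the intervals of Pe day 3 and Mock overlapped. The authors' deposited log2 fold change of Drsl4 was 3.74 (SE 0.51) at Pe day 0 against Mock, or 13.3-fold. Against Mock at Pe day 3 its deposited value was -1.10 (SE 0.66), with an interval of 0.19-fold to 1.15-fold, and it did not pass the test.

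Drsl5 was the weakest of the row. Its normalized count of 31.5 at Pe day 0 (95% interval 14.0 to 70.7) came from an estimated 89.8 reads, while an estimated 0.366 reads at Pe day 3 and 1.98 reads in Mock lay under the floor of 3 counts over a group. The ratio of Pe day 0 to Mock, from 90 and 2 estimated reads, was 25.8, with an interval of 6.95 to 217 that covers counting error only. The authors' deposited log2 fold change of Drsl5 was 4.70 (SE 1.32). The level of Drsl5 at Pe day 0 was 18.0 times the floor of Pe day 3, and the lower end of its interval 8.01 times that floor. Between Pe day 3 and Mock no fold can be given, since both were under the floor.

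Drsl1 and Drsl6 were listed at 0 in the overall mean, among 2018 such genes of the table. If that listing is a count, 0 reads over all libraries allow a level of up to 0.0263 CPM (counts per summed counts of a library, scaled to 1e6), from the limit of 3 counts that covers counting error only. A ribosomal protein gene, RpS28a, was also listed at 0, out of 80 such genes. That limit holds for the mean over all libraries, and it is higher for a single group, which has fewer reads. Below these limits the libraries give no information on the Drsl1 and Drsl6 pair.

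**Figure D1:**
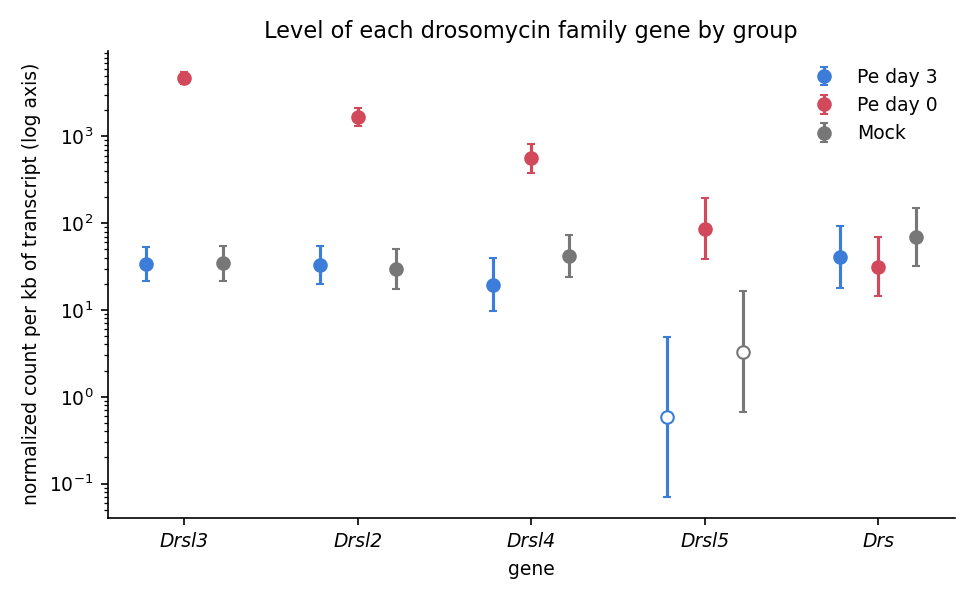
Level of the 4 detected drosomycin-like genes and of Drs in each group, as normalized counts per kb of annotated transcript on a log axis; points are group levels worked out from the deposited table, bars their 95% intervals, and open points levels under 3 estimated reads. At Pe day 0 Drsl3 stood at 4662, Drsl2 at 1656, Drsl4 at 557 and Drsl5 at 86.6, while Drs stood at 31.5.

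Of the 6 members, 4 were tested at Pe day 0 and all 4 were called higher, where 23.0% of all tested genes were called higher, 23.6% lower and 46.6% in either direction. For Pe day 3 against Mock, 3 members were tested and 0 called, against 17.7% of all tested genes called in either direction, 8.75% higher and 8.92% lower. Drsl5 fell under the minimum mean of the second comparison and had no adjusted p there. The comparison of Pe day 3 with Pe day 0 was worked out from both deposited comparisons, which share Mock. In it, 3 members were tested and 3 called lower, where 25.3% of all tested genes were called lower, 27.4% higher and 52.7% in either direction. There the log2 values were -7.11 for Drsl3 (SE 0.36), -5.65 for Drsl2 (SE 0.41) and -4.83 for Drsl4 (SE 0.59), or 138-fold, 50.4-fold and 28.5-fold lower at Pe day 3. The normalization bears on these counts. As deposited, 2391 genes were higher and 2455 lower at Pe day 0 than in Mock, and 5545 and 932 with library totals as the scale. That scale adds 0.67 to each log2 fold change at Pe day 0, so that Drsl3 stood at 7.75, Drsl2 at 6.47, Drsl5 at 5.37 and Drsl4 at 4.40.

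**Figure D2:**
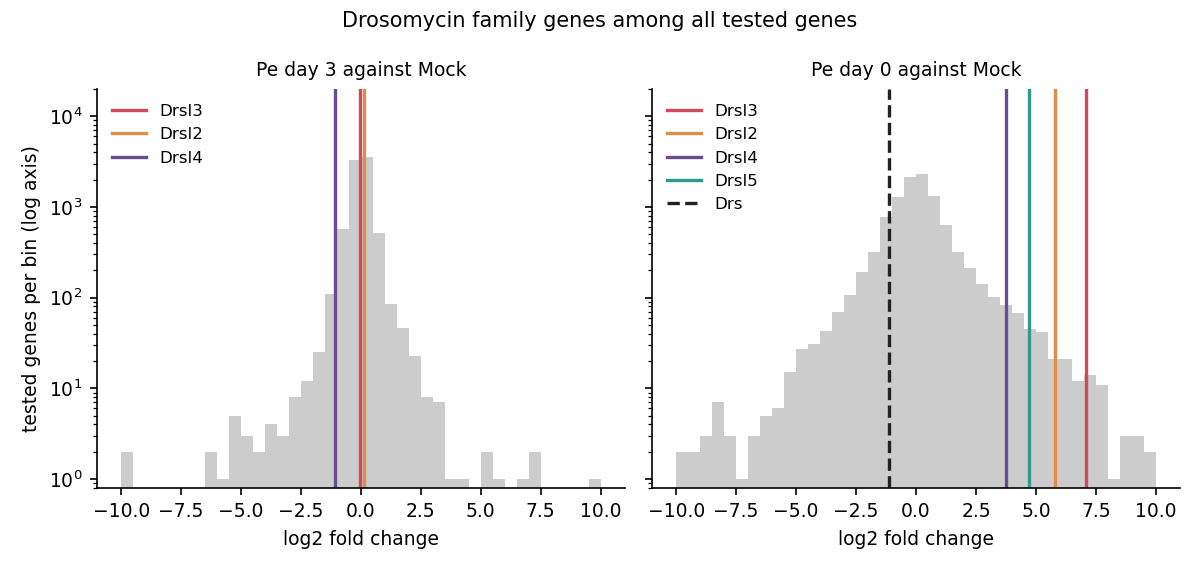
Distribution of the deposited log2 fold changes over all tested genes, 8316 for Pe day 3 against Mock and 10393 for Pe day 0 against Mock, with the number of genes per bin of 0.5 on a log axis and lines at the drosomycin family genes that were tested; the end bins take in the 3 genes (Pe day 3) and 2 genes (Pe day 0) past 10 in either direction. At Pe day 3 the lines lie between -1.10 and 0.14, and at Pe day 0 the drosomycin-like genes lie between 3.74 and 7.09.

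At Pe day 0 the intervals of all 4 genes of the row lay apart, while at Pe day 3 and in Mock those of Drsl2, Drsl3 and Drsl4 overlapped. Per kb of transcript that of Drsl5, under the floor, lay below them in both groups. In normalized counts the Mock interval of Drsl5 (0.245 to 5.97) overlapped that of Drsl2 (5.79 to 17.0). Per kb of transcript, the levels at Pe day 3 were 33.9 for Drsl3, 32.9 for Drsl2 and 19.6 for Drsl4 in normalized counts, and 0.585 for Drsl5 (0.0709 to 4.82) against 9.66 at the lower end for Drsl4. At Pe day 0 the order was Drsl3 (4662, interval 3955 to 5495), Drsl2 (1656, 1312 to 2091), Drsl4 (557, 377 to 822) and Drsl5 (86.6, 38.6 to 194). In Mock, Drsl4 stood at 41.8, Drsl3 at 34.3 and Drsl2 at 29.7, and Drsl5 at 3.32 (0.673 to 16.4). Drsl3 made up 41.1% of the family's normalized counts at Pe day 3, 68.7% at Pe day 0 and 33.4% in Mock. The share of Drsl4 was 21.3% at Pe day 3, 7.37% at Pe day 0 and 36.5% in Mock. The sum over the 4 detected genes was 29.7 normalized counts at Pe day 3, 2441 at Pe day 0 and 37.0 in Mock.

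The size of the change at Pe day 0 also differed within the row. The log2 fold change of Drsl3 exceeded that of Drsl2 by 1.29 (95% interval 0.18 to 2.39) and that of Drsl4 by 3.35 (2.13 to 4.57), with errors taken as independent between genes. Drsl2 exceeded Drsl4 by 2.06 (0.76 to 3.37). Drsl5 could not be placed, since its difference from Drsl4 was 0.97 with an interval of -1.8 to 3.73. The members are short and related in sequence, and the counting may have split reads that match more than 1 of them, which leaves single levels uncertain.

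Drs itself followed another course. Its normalized count was 15.8 at Pe day 3 (95% interval 7.01 to 35.5), 12.2 at Pe day 0 (5.52 to 26.9) and 26.8 in Mock (12.3 to 58.4), and the intervals overlapped in all 3 groups. In the authors' deposited table its log2 fold change at Pe day 0 against Mock was -1.14 (SE 0.82, adjusted p = 0.256), with an interval of 0.15-fold to 1.38-fold. That interval lies wholly below the intervals of Drsl2, Drsl3, Drsl4 and Drsl5 in the same comparison. For Pe day 3 against Mock the deposited value of Drs was -0.77 (SE 0.83), with no adjusted p at its low mean. In Mock, Drs had the highest level per kb of the family, 69.3 normalized counts, though its interval of 31.9 to 151 overlapped those of Drsl2, Drsl3 and Drsl4.

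The genes around the row that had a fold change stood below its members, which were chosen by theirs. CG12009 (1.74, SE 1.8, mean 2.62) was too low for its place to be sure. CG14960 and CG12017 were listed at 0 and had no fold change. Between Drsl5 and Drsl1 lie 6 further genes of the table, with log2 fold changes from -0.75 to 1.13 at Pe day 0. Of these, 1 was called higher and 1 lower, where 23.0% of all tested genes were called higher and 23.6% lower. The nearest, PIG-C, lies 883 bases beyond Drsl5 on the opposite strand and stood at 0.76 (SE 0.43, adjusted p = 0.144) in the authors' deposited table. The gene called higher was CG14961 (1.13, SE 0.20, adjusted p = 9.94e-08), and the gene called lower was PHGPx, which encodes a glutathione peroxidase (-0.75, SE 0.14, adjusted p = 9.96e-07), both in the authors' deposited table. On the far side, ZnT63C, a zinc transporter gene that ends 339 bases before Drsl2, was lower at Pe day 0 in the authors' deposited table (-0.82, SE 0.17, adjusted p = 3.75e-06). With library totals as the scale these calls change: 5 of the 6 genes were then called higher and 0 lower, between -0.09 (PHGPx) and 1.79 (CG14961), and ZnT63C stood at -0.15, not called. On that scale 53.4% of all tested genes were called higher and 8.97% lower. The spectrin gene kst, which fills most of the stretch between Drsl6 and Drs, stood at 0.36 (SE 0.20, adjusted p = 0.141) in the authors' deposited table. Of the 9 genes of the table before Drsl2 or beyond Drsl6, Drs not counted, 7 were tested at Pe day 0, of which 0 were called higher and 1 lower as deposited, and 4 higher and 0 lower with library totals. For Pe day 3 against Mock, 0 of the 6 genes between Drsl5 and Drsl1 were called, and 1 of 6 tested genes outside, CG12012 (0.53, SE 0.19, adjusted p = 0.0295), was higher in the authors' deposited table. In that comparison 8.75% of all tested genes were called higher and 8.92% lower.

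**Figure D3:**
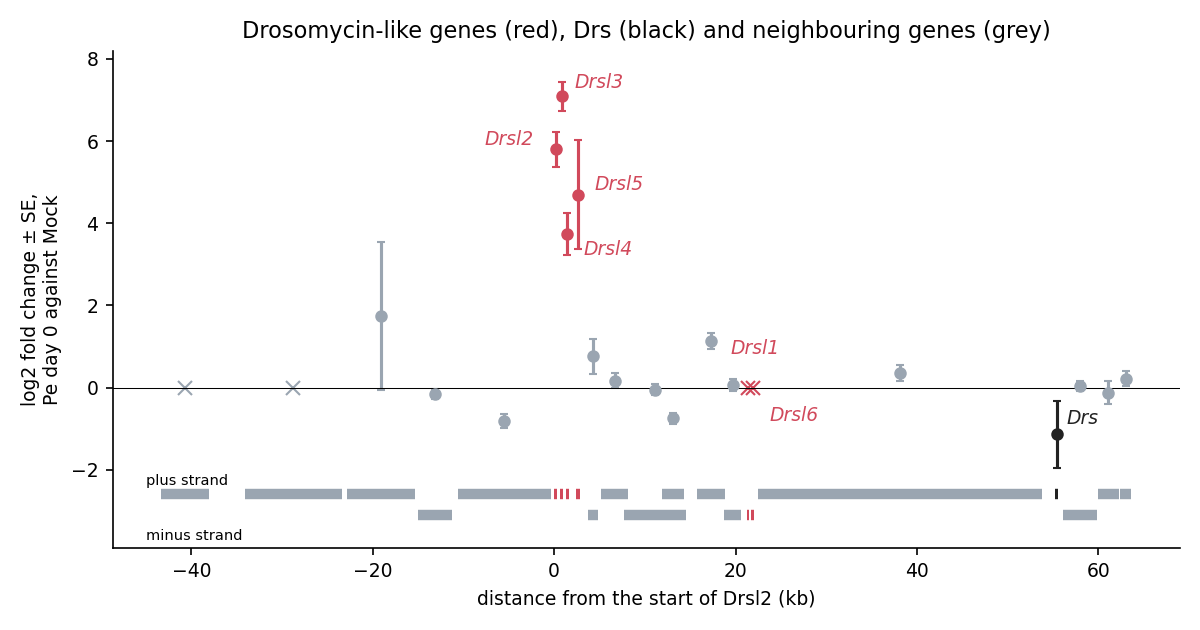
Deposited log2 fold change at Pe day 0 against Mock (points, with SE) of the drosomycin-like genes, Drs and the genes around them, by distance from the start of Drsl2 in kb; crosses at the zero line mark genes listed at 0, and bars under the plot show each gene's extent and strand. The 4 genes of the row stand between 3.74 and 7.09 and the grey neighbours between -0.82 and 1.74, the last with an SE of 1.8.

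The inducible antimicrobial peptide genes stayed at low levels in these midguts. The list of 14 genes, which holds Drs, had a median level of 0.805 normalized counts per kb at Pe day 3, 9.41 at Pe day 0 and 3.06 in Mock. Its highest gene at Pe day 0 was DptA, a diptericin gene, at 54.3 per kb, a value inside the interval of Drsl5 (38.6 to 194) and far below that of Drsl3 (3955 to 5495). At Pe day 3 and in Mock the highest was Drs. Under the floor of 3 estimated reads lay 13 of the 14 genes at Pe day 3, 4 at Pe day 0 and 7 in Mock. At Pe day 0, 2 of 11 tested genes were called higher and 0 lower, where 23.0% of all tested genes were called higher. The list's share of calls was thus not above that of all genes. Its tested genes had a median log2 fold change of 2.21, against 0.03 over all tested genes. At these low counts the few calls do not show that the other genes stayed level. The 3 genes that were not tested, Def, CecB and CecC, lay under the floor in each group. The risers were DptA (3.86, SE 1.21, adjusted p = 0.00397) and the attacin gene AttD (3.33, SE 1.31, adjusted p = 0.0254) in the authors' deposited table. In the comparison of Pe day 3 with Mock the whole list lay under the minimum mean, so that 0 genes were tested.

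**Figure D4:**
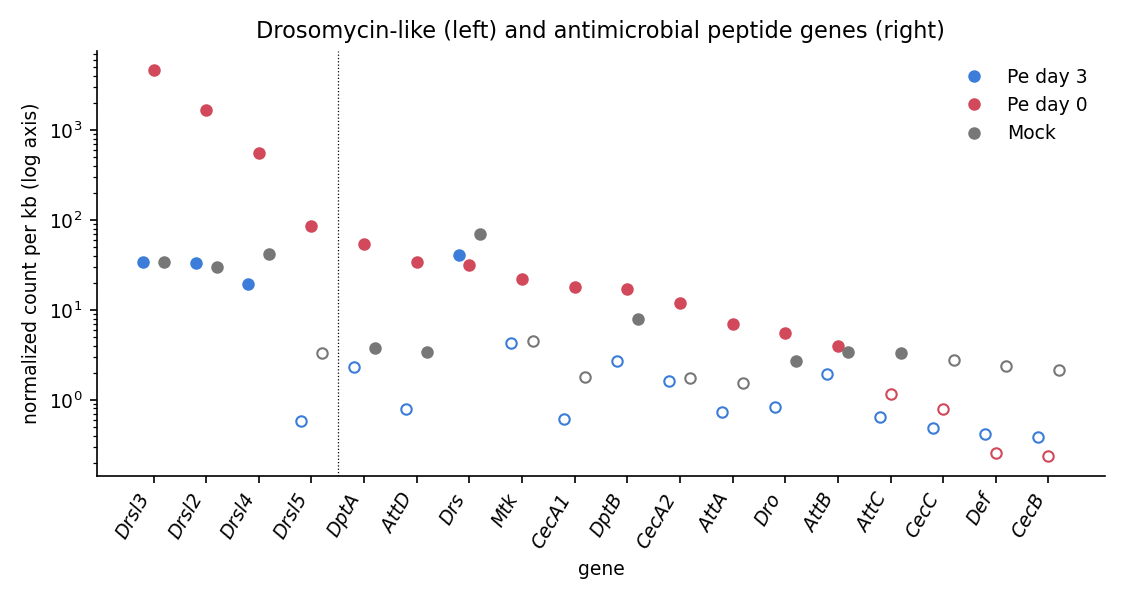
Level of the 4 detected drosomycin-like genes (left of the dotted line) and of 14 antimicrobial peptide genes (right, by level at Pe day 0) in each group, in normalized counts per kb of transcript on a log axis; open points rest on fewer than 3 estimated reads. At Pe day 0 the drosomycin-like genes run from 86.6 to 4662 and the antimicrobial peptide genes from 0.234 to 54.3.

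Genes of the pathways that act on such peptides were mostly higher or not called at Pe day 0. Against 23.0% of all tested genes called higher, the JAK-STAT list had 6 of 12 tested genes called higher and 0 lower, with a median log2 fold change of 1.05 against 0.03 over all tested genes. The smallest p-values of the list in the authors' deposited table belonged to the cytokine gene upd3 (7.43, SE 0.31) and to Socs36E, a target and inhibitor of the pathway (3.97, SE 0.17). In the Imd list 7 of 13 rose and 1 fell, with a median of 0.44. Its NF-kappaB factor gene Rel (1.85, SE 0.13) and key, which encodes a subunit of the kinase complex upstream of Rel (1.04, SE 0.11), rose according to the authors' table, while the receptor gene PGRP-LE was lower (-0.43, SE 0.15) as deposited and stood at 0.24, not called, with library totals. In the Toll list 8 of 17 rose and 0 fell, with a median of 0.55. PGRP-SA, a recognition protein that acts upstream of Toll, rose 11.1-fold (3.47, SE 0.47) and the adaptor gene Myd88 1.67-fold (0.74, SE 0.13) in the authors' deposited table. On the scale of library totals 11 of the JAK-STAT, 12 of the Imd and 11 of the Toll genes were called higher and 0 lower, where 53.4% of all tested genes were called higher, and each median was 0.67 higher.

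For Pe day 3 against Mock, where 8.75% of all tested genes were called higher, 3 of 10 tested JAK-STAT genes, 2 of 13 Imd genes and 1 of 13 Toll genes were called higher and 0 lower in any of these lists. The list medians were 0.17, 0.12 and 0.07 against 0.01 over all tested genes. In the authors' deposited table upd3 was at 1.58 (SE 0.35, adjusted p = 0.000111) and the phosphatase gene Ptp61F, an inhibitor of JAK-STAT signalling, at 0.54 (SE 0.12, adjusted p = 0.000171). There Rel stood at 0.45 (SE 0.13, adjusted p = 0.00663), key at 0.48 (SE 0.12, adjusted p = 0.000647) and Myd88 at 0.58 (SE 0.13, adjusted p = 0.000127). These values stood above Mock in the same comparison in which Drsl2 stood at 0.14 (SE 0.54) and Drsl3 at -0.02 (SE 0.48). Both comparisons share the Mock libraries, and the errors of the drosomycin-like genes at these low levels are wider than those of the pathway genes.

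**Figure D5:**
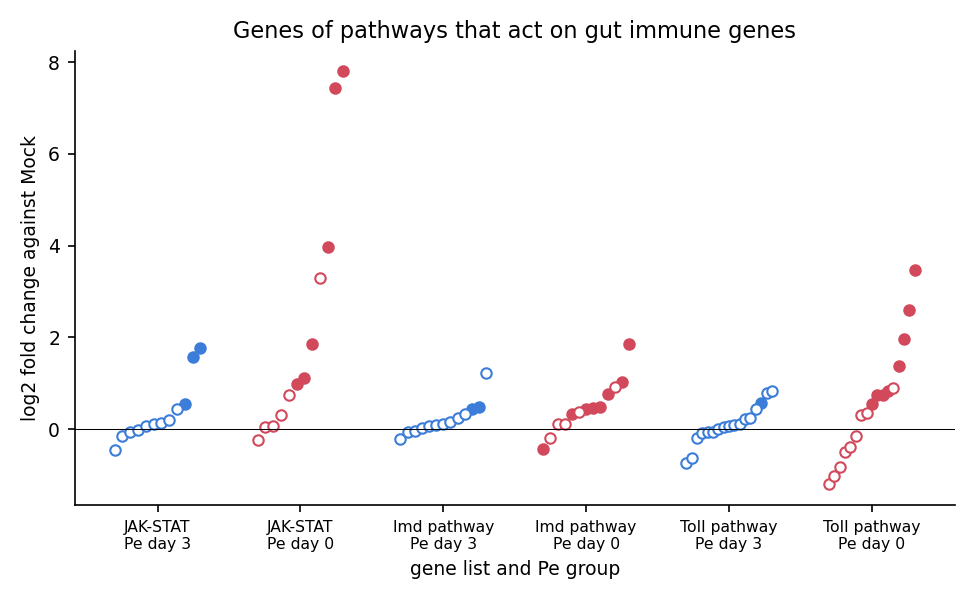
Deposited log2 fold changes against Mock of the genes in the JAK-STAT, Imd and Toll lists, at Pe day 3 and at Pe day 0, ordered by size within each column; filled points passed an adjusted p of 0.05 and open points did not or had no adjusted p. At Pe day 0 filled points reach 7.80 in the JAK-STAT list, 1.85 in the Imd list and 3.47 in the Toll list, and at Pe day 3 they reach 1.77, 0.48 and 0.58.

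Other genes whose pair of deposited fold changes lay nearest to a member's were found by Euclidean distance in log2 units, over 3 groups only and with Mock shared by both values, among 8874 other genes with an overall mean of at least 10. Nearest to Drsl2 were Gr61a, a gustatory receptor gene (distance 0.229), CG5644 (0.462) and Gadd45, a stress response gene (0.489). The authors' deposited log2 fold changes of Gadd45 were 5.44 (SE 0.13) at Pe day 0 and -0.19 (SE 0.15) at Pe day 3. Nearest to Drsl3 were CG13579 (0.0914), CG34179 (0.124) and CG32713 (0.311), all with overall means of at most 29.6 normalized counts and SEs of at least 1.52. Among 7556 genes with a mean of at least 50 the nearest to Drsl3 was the stress peptide gene TotC at 0.560, with deposited values of 6.81 (SE 0.64) at Pe day 0 and 0.47 (SE 0.80) at Pe day 3. Nearest to Drsl4 were CG1801 (0.275), Rad51D, a gene of DNA repair (0.313), and CG14273 (0.427). Of 116 genes with a mean of at least 50 whose level at Pe day 0 was at least 8-fold that in Mock, 60 were within 2-fold of Mock at Pe day 3.

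All 6 enterocyte markers were present in each group, the lowest at 2739.6 normalized counts, and 1 of them was called higher and 3 lower at Pe day 0 than in Mock, or 2 higher and 2 lower with library totals. Over all tested genes 23.0% were called higher and 23.6% lower, or 53.4% higher and 8.97% lower with library totals. Markers of tissues that could come along with a gut were also measured. Of the 4 tested fat body markers 3 were lower and 0 higher at Pe day 0, with a summed level of 5212 normalized counts at Pe day 3, 1305 at Pe day 0 and 5421 in Mock, and Fbp1 was near 0 with a mean of 0.196. The tracheal markers, 2 of 3 lower at Pe day 0 and 1 of 3 with library totals, summed to 203 at Pe day 3, 124 at Pe day 0 and 334 in Mock. The haemocyte markers, 0 of 3 tested called and He near 0 (mean 0.302), summed to 229 at Pe day 3, 169 at Pe day 0 and 281 in Mock. The Malpighian tubule markers, 2 of 3 lower at Pe day 0 and 1 of 3 with library totals, summed to 1608 at Pe day 3, 704 at Pe day 0 and 1262 in Mock. The proventriculus and foregut markers, 1 of 2 tested lower at Pe day 0 but 0 lower and 1 higher with library totals, and eve near 0 (mean 0.117), summed to 1017 at Pe day 3, 1075 at Pe day 0 and 1210.2 in Mock. On this scale none of these 5 sums was higher at Pe day 0 than in Mock, although the proventriculus and foregut sum was higher in CPM (76.4 at Pe day 0 against 54.2 in Mock). The genes of that list went in different directions at Pe day 0 in the authors' deposited table. There hh stood at 0.76 (SE 0.55), not called, and dsx at -0.91 (SE 0.18). Their sum therefore does not show the course of either gene. The part of these tissues in the levels of the drosomycin-like genes was not tested.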

How the data were processed

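Libraries were made from midgut total RNA with an Illumina TruSeq kit, per the labels' protocols. CASAVA 1.8, fastp 0.19.5, Salmon 0.11.3, DESeq2 1.22.0 and the build BDGP6 are named in the submitters' processing notes. What each did, and which annotation was used, is not given in the sources used here. Per the file headers, the authors deposited a mean signal (baseMean) for each gene. It was taken as the mean of normalized counts across libraries, since the headers do not say how it was scaled. Beside it stand, per the file headers, 2 sets of values, each with a log2 fold change and its error, the Wald statistic (a score) and a raw and adjusted p-value. The authors' adjustment (Benjamini-Hochberg) covers 10393 genes, with means from 1.24, in the first set and 8316, with means from 20.8, in the second. Adjusted p-values left blank were kept blank.

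Size factors were computed from genes with a single read. Among 491 genes with means between 0.3 and 0.6 only 12.4% are whole reads over these factors (tolerance 1e-13), so reads of single libraries could not be recovered, and the deposited tests were used in place of count tests. Estimated reads, depth and the floor rest on these factors and are approximate. Group levels were solved from a gene's overall mean and its pair of fold changes. The dispersion was solved from both standard errors (ratio between the sets 0.988 to 1.01, central 98% of genes) and gave the errors of group levels and of Pe day 3 against Pe day 0. That comparison is a 2-sided Wald test, adjusted over 8316 genes in the same way (Python 3.11.15, scipy 1.17.1), and was tested on simulated data. CPM divides a level by the summed levels of its group.

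The members and gene lists were chosen with earlier results of these data known. Named genes were the members, Drs, in each list up to 2 called genes per direction with the smallest p, the genes around the members, and the 3 genes of nearest pattern per member. Promoter and protein sequences were not analysed here.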

Additional observations from a re-analysis of the deposited data

Results flagged for a closer look

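Levels differed between Pe day 3 and Pe day 0 in 10 genes among the members, Drs and the genes named from the lists. Myd88 was not called, and Drsl1, Drsl5, Drsl6, Drs, AttD and DptA had no adjusted p. Of all tested genes 52.7% were called in this comparison, in either direction. The list genes were named for small p-values against Mock, at Pe day 0 or Pe day 3. Their values here therefore reuse those that chose them. The Wald test was adjusted over 8316 genes on the deposited scale. Mock cancels out of this comparison, and day and age changed together, so it does not measure an effect of Pe on each day. Among the drosomycin-like genes the log2 values of Pe day 3 minus Pe day 0 were -7.11 for Drsl3, -5.65 for Drsl2 and -4.83 for Drsl4, which restate the values that chose these genes. In the JAK-STAT list they were -5.85 for upd3 (SE 0.22), -3.54 for Socs36E (SE 0.17) and -0.57 for Ptp61F (SE 0.12). In the Toll and Imd lists they were -2.63 for PGRP-SA (SE 0.42), -1.40 for Rel (SE 0.13), -0.56 for key (SE 0.11) and 0.46 for PGRP-LE (SE 0.15). The last was not called under either change of scale or under the variance that ignores the shared Mock group (adjusted p = 0.0856 there). No value of a single library was at hand, so libraries that stand apart within a group could not be looked for.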

How the results depend on the processing

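For the drosomycin-like genes 42 of 42 recomputed values stayed on their side of the threshold, and those past it kept their direction. Drsl5 in the comparisons of Pe day 3, where it had no adjusted p as deposited, is not among them. The alternatives were library totals as the scale, the same without the 20 most abundant genes, no filter on low means, a mean of at least 20 (which removes Drsl5) and a variance that ignores the shared Mock group. The changes of scale moved a log2 value by at most 0.67, small beside the 3.74 or more of the values past the threshold. Their outcome was therefore largely given in advance. The uncalled value of Drsl3 at Pe day 3 against Mock changed sign, between -0.02 and 0.05. Scale moved the split of all calls: 49.3% of calls were higher at Pe day 0 as deposited, 85.6% with library totals and 79.2% without the 20 most abundant genes, and for Pe day 3 against Pe day 0 the shares were 52.0%, 12.9% and 21.6%. At Pe day 3 against Mock they were 49.5%, 54.7% and 63.0%. The value of PGRP-LE at Pe day 0 turned to 0.24 with library totals and 0.07 without the 20 most abundant genes, and its difference between the days to -0.18 with library totals. On the same pair of scales the difference between the days of Myd88, -0.16 and not called as deposited, was called at -0.80 and -0.58, and Socs36E at Pe day 3 against Mock, 0.44 as deposited (adjusted p = 0.0598), was called at 0.47 and 0.51. Without a filter the fourth member, Drsl5, was also called lower at Pe day 3 than at Pe day 0. Genes of nearest pattern do not depend on the scale, which shifts all genes alike. Leaving out a library, another count test and other promoter windows were not run, since the table gives no reads per library and no sequences were used. No paired analysis was possible because the deposited columns carry no replicate numbers. Depth limits Drsl5 and most of the antimicrobial peptide genes, which lay under 3 estimated reads at Pe day 3.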
